A study of Homo sapiens with 18 samples.

Results

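Metallothioneins are small, cysteine-rich proteins that bind zinc, copper and other soft metals. They buffer free zinc inside the cell, and their thiol groups can also bind platinum drugs, which is why they have long been examined in cells exposed to such agents. In human cells most of the genes lie side by side in a cluster on chromosome 16, and the zinc-sensing factor MTF1 switches them on through short DNA words called metal response elements.

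The 9 genes MT1A, MT1B, MT1E, MT1F, MT1G, MT1H, MT1M, MT1X and MT2A were chosen by name among the non-control spots of a one-colour Agilent array. They were represented by 12 of 50599 probes, and by 9 of 36204 gene names once the brightest probe of each name was kept. The arrays measured total RNA from HT29, a colorectal cancer cell line sensitive to oxaliplatin (OXA, a platinum drug), and from HTOXAR3, its OXA-resistant sub-line. Each line was left untreated, treated with OXA, or treated with OXA plus Curcumin (a plant polyphenol) for 24 h, with 3 biological replicates in each of the 6 groups. The OXA dose was 10 µM in HT29 and 30 µM in HTOXAR3, and the Curcumin dose was 10 µM in both. No group received Curcumin alone, so its own effect cannot be told apart from its effect in the presence of OXA. Resistance was represented by 1 sub-line, and the replicates of a line were cultures of that line.

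Levels are log2 intensities after background correction and quantile normalisation, so 1 unit is a doubling of the signal, and they are relative to the other RNA on the same array. A gene was called where its adjusted p was below 0.05 by limma with the Benjamini-Yekutieli correction over all gene names, and its fold change was above 1.2. The shares of all gene names set beside counts include names near background, whereas 8 of the 9 members were well above it on all 18 arrays. The share of spots reliably over background, controls aside, ran from 52.4% to 63.6% across the arrays. Of 10 colorectal epithelial markers, 7 were well above background on all 18 arrays. CDX2, an intestinal transcription factor, was above it on 9 of 9 HT29 arrays but on 1 of 9 HTOXAR3 arrays. Of 6 markers of blood, vessel and connective tissue cells, CD14 and PTPRC were above background on all 18 arrays, CD3E on 17, COL1A1 on 10, PECAM1 on 4 and COL1A2 on none.

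The probes of the family were compared with one another for shared bases. All 9 probes used lie in the chromosome 16 cluster (GRCh37, chr16:56643332-56717141, a span of 73.81 kb). The first 30 bases of 6 of them are given 5′ to 3′ as printed on the array, with the longest run of those bases that was also found in the probe of another metallothionein gene in capitals.
MT1A: aaatgcaaCTCCTGCAAGAAGAGCTGCTGC
MT1B: tcatcagagaagtgccGCTGCTGTGCCTGA
MT1E: ggcatcggagaagtgcaGCTGCTGTGCCTG
MT1X: tcctgtgcctgtgccggctcCTGCAAATGC
MT1M: tTTTTTCaatacgatactgagccatttgct
MT2A: caaccctgaccgtgaccgTTTGCTAtattc

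Over its whole length of 60 bases, the MT1A probe shared a run of 27 bases with the probe of MT1HL1, a metallothionein-like gene on chromosome 1. The MT1X probe shared 26 bases with the same probe. The MT1B probe matched the MT1E probe at 49 of 60 bases, the MT1F probe matched the second MT1X probe at 49, and the MT1H probe matched the MT1F probe at 46. The MT1E and MT1F probes each shared a run of 19 bases with that of MT1L. The array's annotation also listed transcripts of MT1M for the MT1A probe, of MT1B for the MT1X probe and of MT1H for the MT1HL1 probe. Against the other probes, the longest run was 7 bases for MT1M, 10 for MT1G and 10 for MT2A. The signals of MT1A, MT1B, MT1E, MT1F, MT1H and MT1X may therefore hold some signal of their relatives, and how much was not tested. The probes were compared only with one another and not with whole transcripts. How far MT1M, MT1G and MT2A hold such signal was not tested either.

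RefSeq promoters (GRCh38.p14) were at hand for 4 of the 9 genes. The 250 bases before the start site of transcription are printed for 3 of them, with every match to the core of the metal response element (TGCACNC or TGCGCNC, on either strand) in capitals, because these words are the best-known control elements of the family. The windows lie on the forward strand at chr16:56608334-56608583 for MT2A, chr16:56682220-56682469 for MT1X and chr16:56669564-56669813 for MT1H.
MT2A: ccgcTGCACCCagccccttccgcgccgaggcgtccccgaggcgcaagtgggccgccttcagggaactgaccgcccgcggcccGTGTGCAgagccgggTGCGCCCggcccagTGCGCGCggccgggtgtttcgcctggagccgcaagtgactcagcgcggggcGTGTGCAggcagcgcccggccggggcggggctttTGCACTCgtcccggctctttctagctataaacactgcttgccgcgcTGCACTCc
MT1X: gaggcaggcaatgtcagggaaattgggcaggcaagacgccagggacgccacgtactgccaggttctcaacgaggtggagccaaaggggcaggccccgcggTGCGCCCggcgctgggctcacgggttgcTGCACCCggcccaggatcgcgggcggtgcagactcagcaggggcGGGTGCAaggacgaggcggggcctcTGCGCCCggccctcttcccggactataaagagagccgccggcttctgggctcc
MT1H: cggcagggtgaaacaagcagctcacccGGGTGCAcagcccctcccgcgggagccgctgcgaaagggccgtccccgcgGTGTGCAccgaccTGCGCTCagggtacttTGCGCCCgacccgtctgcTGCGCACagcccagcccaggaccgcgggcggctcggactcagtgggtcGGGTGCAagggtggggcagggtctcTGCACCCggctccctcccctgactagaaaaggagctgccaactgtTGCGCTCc

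MT2A held 7 matches, MT1X held 4, MT1H held 8 and MT1B held 3, and no matches overlapped. Of 35116 promoters searched over the same length, 24.8% held at least 1 match, 1.58% at least 3 and 0.0313% at least 7. By its own probe, MT1H, with the most matches of the 4, was the member closest to background on these arrays. The MT1HL1 probe, for which the annotation lists an MT1H transcript as well, was well above background on all 18 arrays. A match describes the letters of the window and is not a measured binding site.

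**Figure D1:**
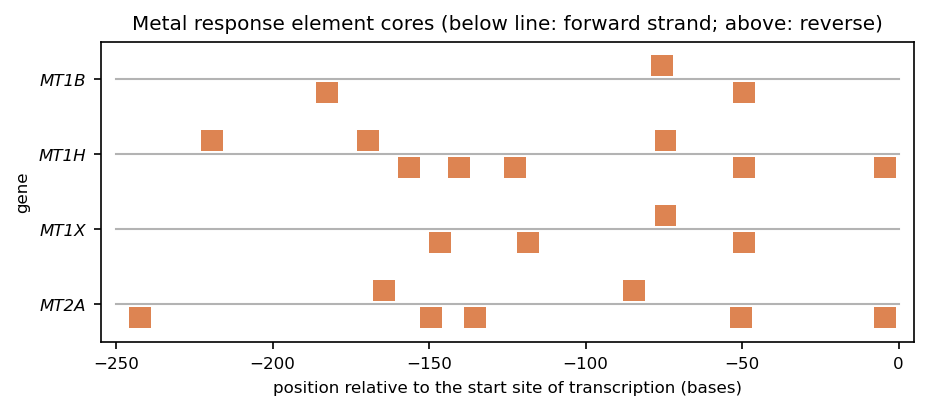
Positions of the metal response element cores in the 250 bases before the start site of 4 metallothionein genes, with the horizontal axis in bases relative to that site. Blocks under a line are on the forward strand and blocks above it on the reverse strand. MT1H carried 8 cores and MT1B 3.

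The question of the untreated comparison was how the resistant sub-line differed from its parent before any drug. Metallothionein levels were lower in HTOXAR3. The call was passed by 6 of 9 genes, all lower, against 11.5% of all gene names called in either direction and 5.28% called lower. With only these 2 groups in the model, 1 member was called, and 1258 gene names instead of 4177. The 9 members had a median difference of −0.57 on the log2 scale, beside −0.03 over all genes. On all 9 genes the 3 HTOXAR3 arrays lay under the 3 HT29 arrays, an arrangement found for 16.4% of all genes, although MT1H was near background on most of these arrays. In bulk RNA a smaller share of cells with a transcript and less of it per cell cannot be told apart.

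MT1G, a zinc-binding isoform, showed the widest gap among the called members. Its level was 7.76, 7.55 and 8.07 on the untreated HT29 arrays and 6.48, 6.18 and 6.32 on the untreated HTOXAR3 arrays. The groups stood apart by about a whole log2 unit even at their nearest arrays. The signal was 2.76-fold lower in HTOXAR3 (log2 difference −1.47 ± 0.16, SE, n = 3 per group, limma adjusted p = 0.000154).

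MT1M came next. It gave 13.33 on each of the 3 untreated HT29 arrays and 12.55, 12.48 and 12.31 on the HTOXAR3 arrays. The difference was −0.89 ± 0.09 (limma adjusted p = 6.19e-05). Its probe had the shortest run shared with another gene's probe, 7 bases, while by matched bases the MT1G probe shared least, at 26 of 60 against 29 for MT1M.

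MT1E fell from 15.58, 15.51 and 15.76 in HT29 to 14.86, 14.82 and 14.90 in HTOXAR3. These groups did not overlap, and the difference was −0.76 ± 0.08 (limma adjusted p = 0.000128). The differences of MT1B, MT1A and MT1X were −0.57, −0.51 and −0.50. That of MT1X (limma adjusted p = 0.02) missed the threshold when any 1 of 5 of the 6 arrays was left out, the exception being HT29 untreated replicate 1, with values from −0.43 to −0.53.

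MT2A, the broadly expressed member that usually makes up much of a cell's metallothionein, stood at 15.25, 15.24 and 15.62 in HT29 and at 15.14, 15.20 and 15.21 in HTOXAR3. The groups lay side by side, the difference was −0.18 with a 95% interval from −0.44 to 0.07, and the gene was not called. MT1F differed by −0.52 with an interval from −0.88 to −0.16, and was not called either (limma adjusted p = 0.48). Some markers moved with the line as well. LGALS4, a gut epithelial galectin, ranged from 14.86 to 15.17 in HT29 and from 12.17 to 12.96 in HTOXAR3. KRT8 and KRT18 leaned the other way, with overlap. They ranged from 15.75 to 16.15 and 18.27 to 18.50 in HT29, and from 15.93 to 16.21 and 18.44 to 18.59 in HTOXAR3. The lines also overlapped for EPCAM, CDH1, KRT20, CEACAM5 and GPA33. The summed signal of the 10 epithelial markers was 18.98 to 19.08 in untreated HT29 and 19.02 to 19.05 in untreated HTOXAR3 on the log2 scale. That sum is mostly KRT18, at 18.27 to 18.59 over all arrays, and does not show VIL1, which ranged from 11.98 to 13.26 in HT29 and from 10.39 to 10.78 in HTOXAR3. That of the 6 markers of other cell types was 11.18 to 11.33 in untreated HT29 and 11.53 to 11.61 in untreated HTOXAR3. That sum is mostly CD14, which ranged from 10.19 to 11.52 over all arrays, while PTPRC ranged from 6.07 to 6.51 in HT29 and from 5.96 to 6.50 in HTOXAR3. The part of these shifts in the metallothionein difference was not tested.

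**Figure D2:**
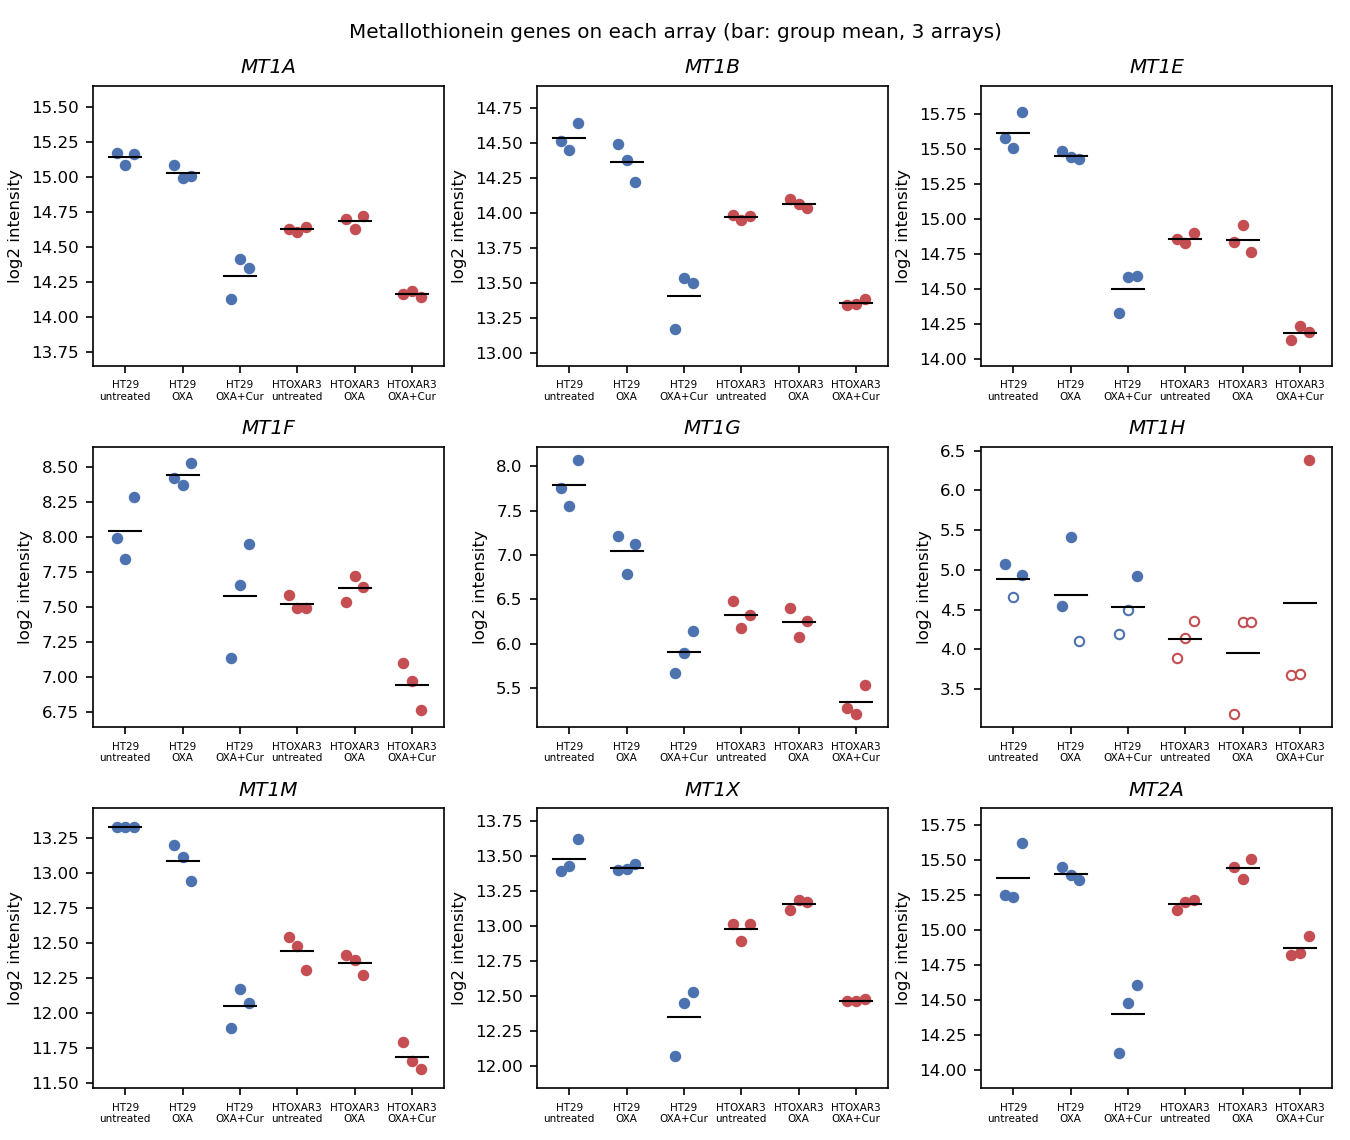
Level of each metallothionein gene on every array (vertical axis, log2 intensity, its own range in each panel), for the 6 groups on the horizontal axis. Filled points were well above background, open points were not, and bars are means of 3 arrays. Blue is HT29 and red is HTOXAR3. In 8 of the 9 panels the arrays given OXA plus Curcumin lie under those given OXA in both lines, and MT1H is mostly open points.

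OXA alone was compared with no treatment to see what the platinum drug did to each line at its own dose. In HT29, 1 of 9 members was called, lower, while 15.9% of all gene names were called and 7.62% were called lower. In HTOXAR3 none of the 9 was called by limma, against 10.2% of all gene names, and none with the Benjamini-Hochberg correction. Both counts are close to what those shares give for 9 genes. At an unadjusted p below 0.05 there were 3 members in HT29 and 1 in HTOXAR3, beside 31.9% and 28.3% of all gene names. The median difference of the 9 genes was −0.16 in HT29 and 0.06 in HTOXAR3, beside −0.01 and 0.01 over all genes.

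The called gene was MT1G. Its HT29 level was 7.22, 6.79 and 7.12 after OXA, under each of the untreated values given above. The difference was −0.75 ± 0.16 (SE, n = 3 per group, limma adjusted p = 0.0352). The call was lost without HT29 OXA replicate 2 or 3 and without HT29 untreated replicate 1 or 3, where the differences ran from −0.61 to −0.79, and it was lost with both scalings to the 75th percentile and with only these 2 groups in the model. In HTOXAR3 the MT1G level after OXA was 6.41, 6.07 and 6.25, which overlapped the untreated arrays, and the difference was −0.08 with an interval from −0.44 to 0.27.

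MT2A had the only unadjusted p below 0.05 in HTOXAR3. Its level was 15.45, 15.37 and 15.51 after OXA, above all 3 untreated arrays, with a difference of 0.26 (interval 0.00 to 0.51, limma adjusted p = 1). In HT29, MT1F stood at 8.42, 8.37 and 8.53 after OXA and at 7.99, 7.84 and 8.28 without it. Those groups did not overlap, yet the difference of 0.40 was not called (limma adjusted p = 1). MT1F was the 1 member above its untreated arrays in HT29, an arrangement found for 17.5% of all genes. The arrays of 3 members, MT1E, MT1G and MT1M, lay under their untreated arrays there, as did those of 17.1% of all genes. MT1M differed by −0.24 (interval −0.44 to −0.05, limma adjusted p = 0.759) and MT1E by −0.16 (−0.34 to 0.02). In HTOXAR3 the arrays of 3 members, MT1B, MT1X and MT2A, lay above their untreated arrays, beside 17.7% of all genes, with differences of 0.10 for MT1B (interval −0.10 to 0.29) and 0.18 for MT1X (−0.03 to 0.39). The summed signal of the markers of other cell types was 10.40 to 10.46 in HT29 given OXA and 10.99 to 11.07 in HTOXAR3 given OXA, lower than in the untreated arrays of each line. The epithelial sum was 19.13 to 19.22 in HT29 given OXA, above the untreated arrays, and 19.02 to 19.05 in HTOXAR3 given OXA. The part of either was not tested.

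Adding Curcumin to OXA lowered the family in both lines. In HT29, 8 of 9 members fell, against 5.53% of all gene names called and 2.39% called lower. In HTOXAR3, 7 of 9 fell, against 8.83% called and 4.41% called lower. When only the groups compared entered the model, with fewer arrays to estimate the spread, no member was called in either line, and the number of gene names called fell to 16 in HT29 and 223 in HTOXAR3, from 2002 and 3198. The median difference of the 9 genes was −0.96 in HT29 and −0.67 in HTOXAR3, while that of all genes was −0.02 in each. For all members but MT1H, the 3 arrays with Curcumin lay under the 3 with OXA alone in both lines, as did those of 13.7% of all genes in HT29 and 17.3% in HTOXAR3.

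**Figure D3:**
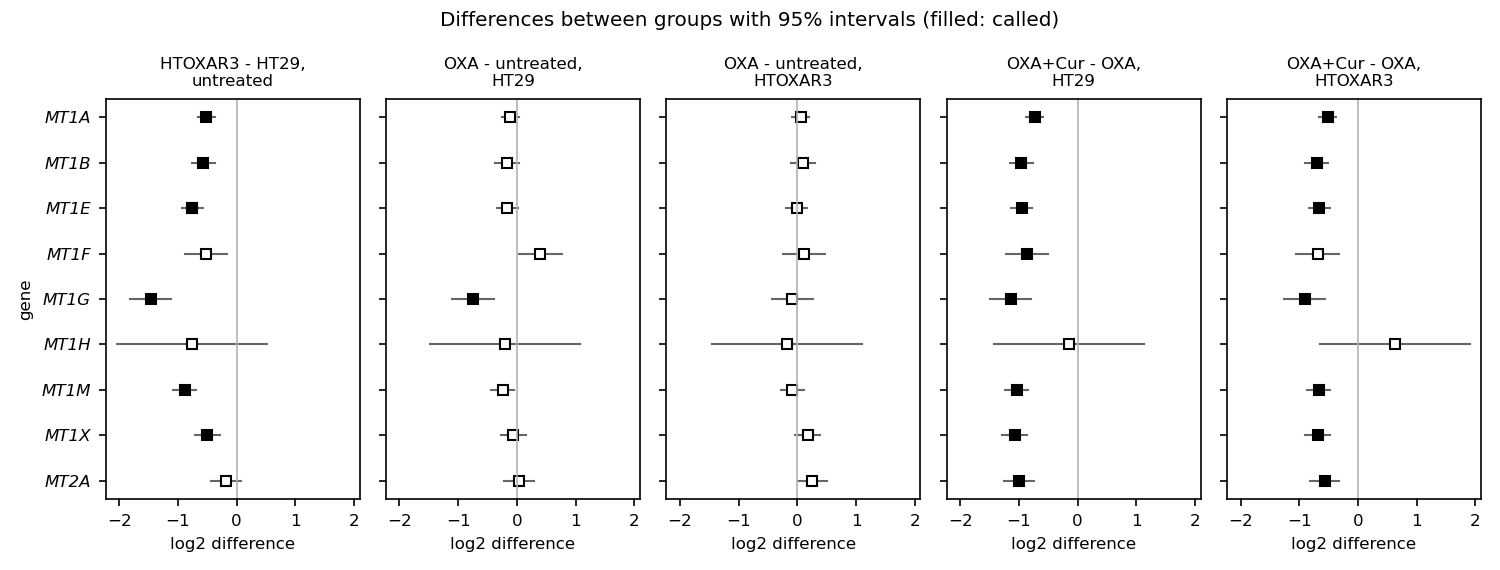
Log2 difference (horizontal axis) of each of 9 metallothionein genes (vertical axis) in 5 comparisons, with 95% intervals from limma and 3 arrays per group. Filled squares passed the call. For OXA alone only MT1G in HT29 is filled, and the squares lie left of 0 when Curcumin was added, apart from MT1H in HTOXAR3.

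MT2A showed the step clearly, since OXA alone had not lowered it. In HT29 it went from 15.45, 15.39 and 15.36 with OXA to 14.12, 14.47 and 14.60 with OXA plus Curcumin. The signal was 2.00-fold lower (log2 difference −0.997 ± 0.117, SE, n = 3 per group, limma adjusted p = 0.00078). In HTOXAR3 it reached 14.82, 14.84 and 14.96. That fall was −0.57 ± 0.12 (limma adjusted p = 0.0377), a call that was lost when any 1 of the 6 arrays was left out, with values from −0.54 to −0.61.

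MT1X was at 13.40, 13.41 and 13.44 in HT29 with OXA and at 12.07, 12.45 and 12.53 with OXA plus Curcumin. The difference was −1.07 ± 0.10 (limma adjusted p = 0.000107). The HTOXAR3 levels were 13.12, 13.19 and 13.17 with OXA and 12.46, 12.47 and 12.48 with the combination. These arrays were well separated, and the difference was −0.69 ± 0.10 (limma adjusted p = 0.00242).

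MT1G again moved furthest in each line. With the combination it stood at 5.66, 5.89 and 6.14 in HT29 and at 5.27, 5.20 and 5.54 in HTOXAR3. The differences from OXA alone were −1.14 ± 0.16 and −0.91 ± 0.16 (limma adjusted p = 0.00431 and 0.0153). The HTOXAR3 call was lost without HTOXAR3 OXA plus Curcumin replicate 1 or 2 and without HTOXAR3 OXA replicate 1 or 3, at −0.83 to −0.90.

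The differences of MT1M, MT1B, MT1E and MT1A were −1.04, −0.96, −0.95 and −0.73 in HT29 and −0.67, −0.71, −0.66 and −0.52 in HTOXAR3. All 8 of these were called. MT1F fell in HT29 by 0.86 on the log2 scale (limma adjusted p = 0.0367). That call was lost under a block for slide or replicate number, and without any 1 of 5 of the 6 arrays, the exception being HT29 OXA plus Curcumin replicate 3, at −0.64 to −0.90. In HTOXAR3 its difference was −0.69 (limma adjusted p = 0.11). The summed signal of the markers of other cell types with the combination was 10.69 to 11.16 in HT29 and 11.01 to 11.09 in HTOXAR3. The epithelial sum was 19.13 to 19.21 in HT29 and 19.14 to 19.18 in HTOXAR3, the latter above the arrays given OXA alone. The part of either was not tested.

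Measured against untreated cells, the combination lowered 7 of 9 members in HT29, beside 18.6% of all gene names called and 9.02% called lower, and 6 of 9 in HTOXAR3, beside 17.5% called and 8.64% called lower. These comparisons use the same combination arrays as the step from OXA alone. The largest was MT1G in HT29, at −1.89 ± 0.16, a 3.71-fold lower signal (limma adjusted p = 8.33e-06). MT1M, MT1B and MT1X followed at −1.28, −1.13 and −1.13. In HTOXAR3 the differences of called members ran from −0.99 for MT1G to −0.46 for MT1A. MT2A was called in HT29 at −0.97 but not in HTOXAR3, where it was −0.31 with an interval from −0.57 to −0.06. MT1X was called in HTOXAR3 at −0.51 (limma adjusted p = 0.0132), and that call was lost without any 1 of 5 of the 6 arrays, the exception being HTOXAR3 untreated replicate 2, at −0.49 to −0.51.

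Whether the lines responded differently was tested as an interaction, at the line's own OXA dose. None of the 9 genes was called for OXA, for the combination or for the added Curcumin, against 1.01%, 0.856% and 0.135% of all gene names. For the combination against untreated cells, limma gave 7 of 9 members an unadjusted p below 0.05, each with the smaller fall in HTOXAR3, beside 14.4% of all gene names at that p. The interaction was 0.65 for MT2A (interval 0.30 to 1.01), 0.62 for MT1X (0.32 to 0.92) and 0.90 for MT1G (0.40 to 1.40). With the Benjamini-Hochberg correction in place of the stricter one, 5 were called, namely MT1A, MT1B, MT1M, MT1X and MT2A, against 3.44% of all gene names under that correction. For OXA alone and for the added Curcumin, 1 and 5 members had an unadjusted p below 0.05, beside 13.7% and 9.74% of all gene names, and none was called with either correction. The interaction shares the untreated arrays with the comparison of the untreated lines, so a low starting level in HTOXAR3 and a small fall there are not separate measurements.

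**Figure D4:**
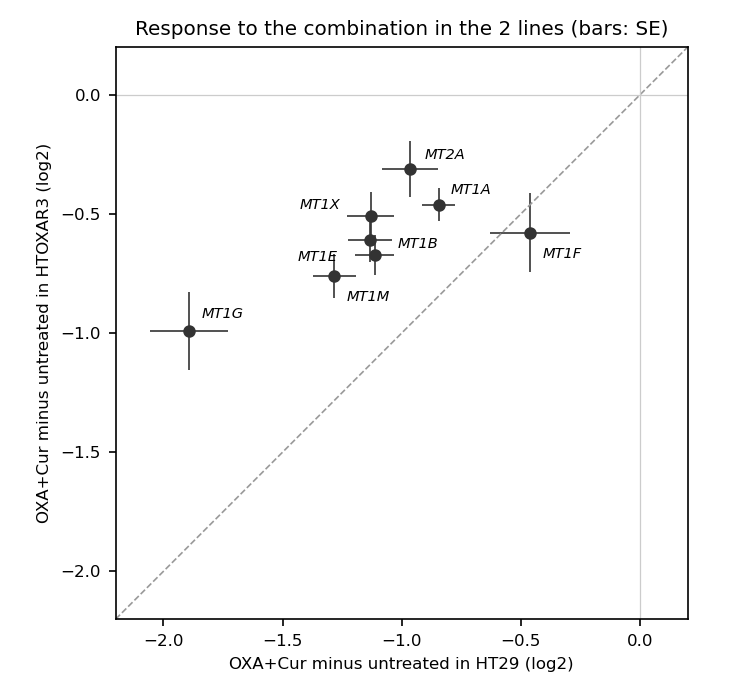
Log2 difference between OXA plus Curcumin and no treatment in HT29 (horizontal axis) and in HTOXAR3 (vertical axis) for 8 metallothionein genes, with SE bars and 3 arrays per group. MT1H, mostly near background, is left out. Points above the dashed line of equal change fell less in HTOXAR3, which holds for all but MT1F.

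After the combination the lines overlapped for some members and stood apart for others. MT1B averaged 13.40 in HT29 and 13.36 in HTOXAR3, MT1A 14.29 and 14.16, and MT1X 12.35 and 12.47. The arrays of the lines overlapped for these 3, and for MT1H near background. HTOXAR3 lay lower with no overlap for 4 members: MT1E averaged 14.50 in HT29 and 14.19 in HTOXAR3, MT1F 7.58 and 6.94, MT1G 5.90 and 5.34, and MT1M 12.05 and 11.68. MT2A lay the other way round, at 14.40 in HT29 and 14.87 in HTOXAR3 with no overlap. In all, 5 of 9 members stood apart in either direction, beside 35.9% of all genes. The OXA doses differed between the lines, so these levels are set side by side without a test.

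The order of the 6 groups was alike for much of the family. Untreated HT29 was highest and HTOXAR3 given the combination was lowest for MT1A, MT1B, MT1E, MT1G and MT1M. For MT1A, neighbours in that order overlapped between untreated HT29 and HT29 given OXA, between HTOXAR3 given OXA and untreated HTOXAR3, and between the combination groups of the lines. MT1X and MT2A were lowest in HT29 given the combination, and MT2A was highest in HTOXAR3 given OXA, where its arrays overlapped those of HT29 given OXA.

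By its own probe, MT1H was well above background on 6 of 18 arrays and on none of the untreated or OXA-treated HTOXAR3 arrays. Its level was 5.08, 4.66 and 4.93 in untreated HT29, of which 2 arrays were above background. With the combination HTOXAR3 gave 3.68, 3.69 and 6.38. A single array, replicate 3, was above background there, and the others averaged 3.68.

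A pair of members had further probes. The second MT1X probe was annotated to MT1X alone and averaged 8.61 over all arrays, beside 12.98 for the brighter probe used. It gave −0.97 between the untreated lines, −1.37 and −0.49 for the combination in HT29 and HTOXAR3, and −1.03 and −0.64 for the added Curcumin. Among these only the −0.49 was not called (limma adjusted p = 0.0677 over all probes). The second MT1E probe, whose annotation also lists transcripts of MT1M and MT1JP, gave −0.83, −1.15 and −0.70 for the first 3 of these comparisons, all called. The third MT1E probe, whose group means were 5.44 to 6.25, was called in none.

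Among 6 of 9 other metallothionein names found on the array, MT1L and MT1HL1 moved as the members did. MT1L averaged 14.69 in untreated HT29, 14.56 with OXA and 13.54 with the combination. In HTOXAR3 it averaged 14.10, 14.17 and 13.53. Both names were called lower between the untreated lines, with the combination and with the added Curcumin. Yet the MT1L probe shared 19 bases with those of MT1E and MT1F, and the MT1HL1 probe 27 with that of MT1A. The MT1HL1 probe was also annotated to a transcript of MT1H. MT3, a form best known from brain, was above background on all 18 arrays with group means from 11.62 to 11.81. It was not called in any comparison, with differences between groups from −0.12 to 0.05. MT1IP was above background on 16 arrays and was not called in any comparison, with −0.47 between the untreated lines and −0.32 and 0.26 for the combination in HT29 and HTOXAR3. MT1DP was above background on no array and MT4 on 1.

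The machinery around the metallothioneins was followed with a list of 25 genes: MTF1, the SLC30A exporters that move zinc out of the cytosol, and the SLC39A importers that bring it in. They did not move as a block. Between the untreated lines 3 were higher and 1 was lower in HTOXAR3, where 11.5% of all gene names were called. With OXA alone, 4 rose and 5 fell in HT29, and 3 rose and 2 fell in HTOXAR3, beside 15.9% and 10.2% of all gene names. For the added Curcumin, 1 rose and 1 fell in HT29, and 3 rose and 1 fell in HTOXAR3, beside 5.53% and 8.83%. For the combination against no treatment, 4 rose and 4 fell in HT29, and 5 rose and 5 fell in HTOXAR3, beside 18.6% and 17.5%, and the medians were −0.06 and 0.05.

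SLC30A1, the zinc exporter of the plasma membrane and itself a known MTF1 target, rose with the combination in both lines, where the called metallothioneins fell, but already rose with OXA alone and did not differ beyond the call between the untreated lines. It averaged 10.56 ± 0.09 in untreated HT29, 11.16 ± 0.04 with OXA and 11.27 ± 0.07 with the combination (SD, n = 3). In HTOXAR3 it averaged 10.61 ± 0.02, 11.00 ± 0.04 and 11.38 ± 0.06. It rose with OXA by 0.60 in HT29 and 0.40 in HTOXAR3 (limma adjusted p = 4.5e-05 and 0.00346). The added Curcumin raised it further in HTOXAR3, by 0.38 (limma adjusted p = 0.00604), while in HT29 the step was 0.11 and was not called; the interaction of 0.27 was not called.

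MTF1 itself was called in no comparison. Its difference between the untreated lines was −0.26 (limma adjusted p = 0.211), and the combination gave −0.21 in HT29 and −0.03 in HTOXAR3. SLC39A8, an importer of zinc and manganese, was lower with the combination in HT29, at −0.86, of which −0.43 was already there with OXA alone and −0.43 came with the added Curcumin, all 3 called. In HTOXAR3 its combination value was −0.42, called but outside the 4 largest changes of that comparison and added after its value was seen. SLC39A4, the main intestinal zinc importer, differed by −0.63 between untreated HTOXAR3 and untreated HT29 (limma adjusted p = 0.000149). The same comparison gave 3 importers that were higher, namely SLC39A11 at 0.78, SLC39A9 at 0.60 and SLC39A8 at 0.35.

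The other largest called changes of the list are given as log2 differences. With OXA alone they were SLC39A11 at −0.62, SLC39A1 at 0.57 and SLC39A13 at 0.45 in HT29, and SLC39A3 at 0.69, SLC39A11 at −0.48 and SLC39A13 at 0.46 in HTOXAR3. With the combination they were SLC30A6 at 0.58 and SLC30A9 at −0.56 in HT29, and SLC39A5 at −0.83, SLC39A9 at 0.62 and SLC30A6 at 0.60 in HTOXAR3. With the added Curcumin they were SLC30A5 at 0.34 in HT29, and SLC30A9 at −0.65, SLC39A9 at 0.46 and SLC30A5 at 0.37 in HTOXAR3. Genes of both the SLC30 and the SLC39 family thus stood on either side of 0.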

How the data were processed

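Intensities were measured on 18 one-colour arrays. Per the file headers, the authors' scans were extracted with Agilent Feature Extraction 10.7.3.1, and the deposited spot intensity columns were not yet normalised. Mean signals were corrected with normexp (offset 0, local background medians), quantile normalised on the log2 scale after control spots were dropped, and averaged per probe without outlier-flagged spots. The brightest probe stood for each gene name. Group means were fitted over all arrays (limma 3.58.1, R 4.3.3, with moderated variances), with Benjamini-Yekutieli adjustment. Sequences were searched in Python 3.11.15. The scripts were tested on simulated data. The deposited table of the whole series was not used, since its lines carry no probe names. Members and gene lists were chosen with earlier results of these data known, and named genes were the members, other metallothionein names, up to 4 zinc-list genes per comparison with the largest called changes, MTF1, and the 5 genes most alike in level. The arrays lay on 3 slides, with 2, 8 and 8 arrays, and slide 1 held HT29 alone. The number of arrays limits the precision. Replicate numbers paired the arrays for OXA in HT29 (correlations of deviations 0.117 to 0.242) and for added Curcumin in HTOXAR3 (0.109 to 0.195); the arrays of a pair lay on 1 slide there. Offsets, scalings, probe choice, filters, blocks, adjustment and omission of single arrays were varied.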

Additional observations from a re-analysis of the deposited data

How the results depend on the processing

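The count of metallothionein genes called stayed within 1.5 times its value for all 10 comparisons with a normexp offset of 50, the mean of all probes, a filter on dim genes, and a block for slide or replicate number. When only the groups compared entered the model, it was 0 for the added Curcumin in HT29 and in HTOXAR3, 1 for the untreated lines and 0 for OXA in HT29, with fewer arrays to estimate the spread. For OXA in HT29 it was also 0 with both scalings to the 75th percentile, and for the interaction of the combination it was 5 with Benjamini-Hochberg adjustment. Without single arrays the count was 7 to 8 and 5 to 6 for the added Curcumin in HT29 and HTOXAR3, 5 to 6 for the untreated lines, 7 to 7 and 5 to 6 for the combination, and 0 to 1 for OXA in HT29. Taken alone, the third MT1E probe had the opposite sign in HTOXAR3, at 0.50 for the combination and 0.57 for the added Curcumin. Each had an SE of 0.29, and neither was called. In HT29 the same probe gave −0.18 and −0.56, also not called. The cause was not tested.

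A replicate block or a slide block changed 1 call, that of MT1F for the added Curcumin in HT29, with the difference at −0.86 or −0.85 (limma adjusted p = 0.0611 and 0.0868). Under that replicate block 7 members were called there, 7 for the added Curcumin in HTOXAR3, 6 for the untreated lines, 7 and 6 for the combination, 1 for OXA in HT29 and 0 elsewhere. Within slides 2 and 3, all 9 members were lower in untreated HTOXAR3 than in HT29, and 8 or 9 of 9 were lower with the combination and with the added Curcumin in each line. Of the 47 differences that no setting called, at most 2 changed sign under a setting that kept all arrays. When single arrays were left out, 23 of 414 pairs of such a difference and an omitted array changed sign. The scalings to the 75th percentile moved the median of all genes to between −0.19 and 0.09, and relative to that median all 35 called differences stayed below 0.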

Other observations

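The genes whose levels ran most like the mean of the 8 members above background on every array were sought among 17389 gene names well above background throughout. The closest were DARS (Pearson r = 0.951 over 18 arrays), PDE3B (0.950), YWHAH (0.950), EIF4EBP1 (0.943) and JPH1 (0.942). DARS encodes the cytosolic aspartyl-tRNA synthetase and EIF4EBP1 a repressor of cap-dependent translation. The 18 arrays share 6 groups and their treatments, so these values are a description. PDE3B, a phosphodiesterase of cyclic nucleotides, averaged 9.74 in untreated HT29, 9.67 with OXA and 9.13 with the combination, and 9.47, 9.58 and 9.03 in HTOXAR3.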
